A study of Mus musculus with 8 samples.

Results

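The transcripts of 9 enzymes of the tricarboxylic acid (TCA) cycle were examined in the outer cortex of the mouse kidney under a diet rich in fat and a control diet. They were chosen by symbol from the deposited count table (Cs, Idh2, Idh3a, Ogdh, Suclg1, Suclg2, Fh1, Mdh1 and Mdh2), and all 9 were found among its 23504 gene symbols. All mice were wild-type C57Bl6/J. The high fat group (libraries A, B, F and G) and the control group (libraries I, J, L and M) had been on their diets for 9 weeks from 6 weeks of age, and tissue was taken at 15 weeks. The labels give neither the sex of the mice nor whether each library came from a separate mouse, so the p-values below measure only the spread between these libraries.

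The TCA cycle runs in the mitochondrial matrix. It oxidizes acetyl groups from glucose, fatty acids and amino acids, and hands the electrons to the respiratory chain. The proximal tubule, which fills most of the cortex, is rich in mitochondria and draws most of its energy from fatty acids. It also takes cycle intermediates from glutamine and lactate into glucose synthesis, so entry into and exit from the cycle are busy in this tissue. The stated purpose of the series was to find genes that differ between the diets. For these enzymes the comparison asks whether the transcripts of the cycle differed with the fat content of the diet.

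None of the 9 transcripts passed the test in either direction (edgeR's quasi-likelihood fit, p adjusted by Benjamini-Hochberg over 14711 tested genes, threshold 0.05). Over all tested genes 9.99% passed, 5.13% lower and 4.86% higher on the high fat diet. DESeq2 and limma-voom also called 0 of the 9. At an unadjusted p under 0.05 in edgeR there were 2, Idh3a with a lower and Ogdh with a higher mean on the high fat diet, against 27.4% of all tested genes. The median log2 fold change of the 9 was -0.0099, beside -0.0023 over all genes, with 4 of them above 0 and 5 below; by sign alone 50.5% of all tested genes were lower on the high fat diet. In none of the 9 did the values of the 2 diets separate fully, beside 17.5% of all tested genes, 9.2% with all high fat values below all control values. The authors' deposited table of genes that differ between the diets, with a posterior score for equal expression of at most 0.0499, lists 0 of the 9. It holds 1133 genes, beside 23504 symbols in the count table. None of these counts of the 9 was tested against its share of all genes.

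**Figure D1:**
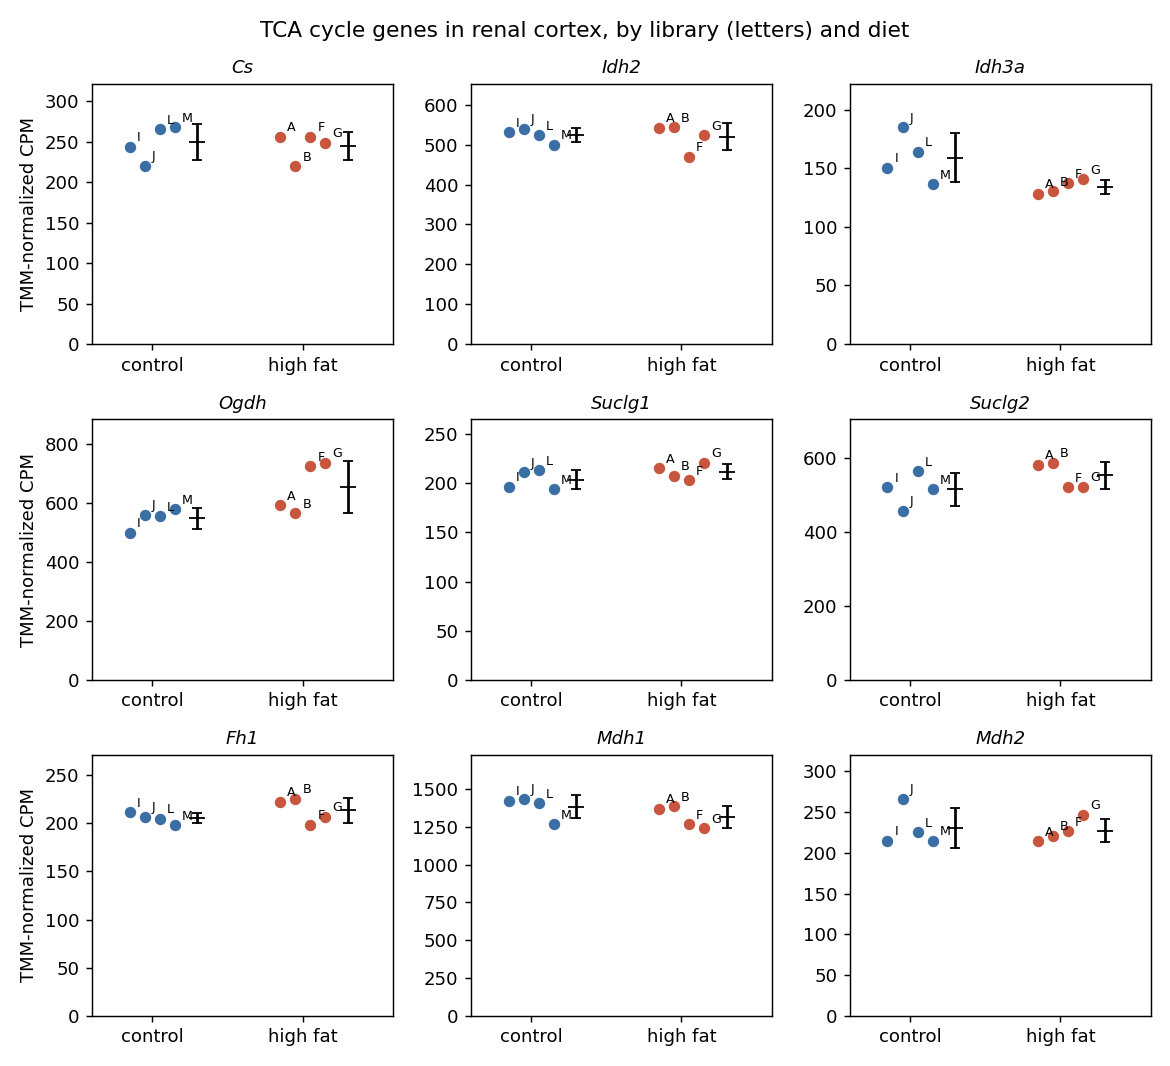
TMM-normalized CPM (counts scaled to a common library size; vertical axes, from 0) of the 9 genes in each library, with letters for libraries, blue for control and red for high fat; the black bar is the mean ± SD of 4 libraries. The diets overlap in every panel; for Idh3a, Ogdh and Mdh1 a single control library, control M, lies within the high fat range.

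Total expected counts ran from 23503593 to 30781585 per library. Rn45s, the ribosomal RNA precursor, took 1.23% to 13.3% of them in 7 libraries and 50.35% in control J, and it was left out before scaling. Without it control J held 13993652 counts and the other libraries 21793784 to 30403685. The least abundant value among the 9 genes was still 2382 counts, for Idh3a, where counting error alone is 2.05% of the value, and the spread between libraries of a diet ran from 2.74% to 13.5% of the mean. Counting error was small beside the wider of these spreads. For Fh1 it was 1.94% in the lowest library, against a spread of 2.74% on the control diet. As a check on the tissue, 10 marker genes of the early proximal tubule summed to 23446 to 24968 CPM on the control diet and 24101 to 25457 on the high fat diet. The sum does not show that its genes were equal. By sign of the fitted log2 fold change 5 were higher and 5 lower on the high fat diet. The diets separated fully for 7 of the 10, against 17.5% of all tested genes. Of 6 fat cell markers 5 (Adipoq, Plin1, Cidec, Lep and Ucp1) were at most 0.547 CPM in any library, and Fabp4, which endothelium also expresses, was at 31.0 to 41.2 CPM and did not pass (unadjusted p = 0.046, edgeR). All 5 skeletal muscle markers were at most 0.953 CPM. Red cell markers summed to 4194 CPM in high fat G and 1837 CPM in control J, against 742 to 1049 CPM in the other 6 libraries; fits without both of these libraries were also run.

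Citrate synthase, encoded by Cs (chromosome 10, 128337734 to 128362479, GRCm38), joins acetyl-CoA to oxaloacetate and opens the cycle. Its level in CPM, counts normalized with TMM factors, was 244, 220.1, 265 and 268 in control I, J, L and M, and 256, 219.9, 256 and 249 in high fat A, B, F and G. The lowest library of each diet lay near 220 CPM, and the other 6 lay between 244 and 268. The means were 249 ± 22.3 and 245 ± 17.2 CPM (SD, n = 4). The log2 fold change was -0.03 ± 0.07 (SE). The 95% interval of the fold was 0.877 to 1.10 (adjusted p = 0.86, edgeR). Its relative Csl, with which reads could be shared, was at most 9 counts in any library, against at least 2829 for Cs.

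Isocitrate is oxidized by 2 mitochondrial enzymes. The NADP-dependent form, encoded by Idh2 (chromosome 7, 80094846 to 80115392), supplies reducing power against oxidants as well as carbon to the cycle. Idh2 was at 532, 540.4, 524 and 500.2 CPM in control I, J, L and M and at 542, 545, 471 and 524 CPM in high fat A, B, F and G. The high fat values enclosed all 4 control values, with high fat F the lowest of all. The fold of high fat over control had a 95% interval of 0.906 to 1.09 (log2 fold change -0.01 ± 0.06 (SE), adjusted p = 0.94, edgeR).

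The NAD-dependent form is built from the catalytic subunit IDH3A and the subunits IDH3B and IDH3G, and it is a point where the cell's energy state controls the cycle. Idh3a (chromosome 9, 54586334 to 54604661) was at 151, 185, 164 and 136 CPM in control I, J, L and M, and at 128, 130.3, 137 and 141 CPM in high fat A, B, F and G. All 4 high fat libraries lay below the control mean and 2 of them below every control library; control M lay within the high fat range and control J stood highest. The means were 159 ± 20.8 and 134 ± 5.82 CPM (SD, n = 4), and the 95% interval of the log2 fold change, -0.24 ± 0.08 (SE), was -0.43 to -0.06. The adjusted p was 0.090 in edgeR, 0.062 in DESeq2 and 0.097 in limma-voom, so Idh3a did not pass. Without control M it did (log2 fold change -0.31, adjusted p = 0.028, edgeR), and without control J its log2 fold change was -0.16 (adjusted p = 0.18, edgeR).

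The partner subunits did not share that direction. Idh3g (chromosome X, 73778963 to 73786897) rose by 0.23 ± 0.06 (SE) on the log2 scale, with means of 248 ± 11.0 CPM on the control diet and 291 ± 20.2 CPM on the high fat diet (SD, n = 4; adjusted p = 0.038, edgeR), with all 4 high fat values (270.1 to 317 CPM) above all 4 control values (232 to 258 CPM). That call was kept in 2 of 8 fits without a library; it was lost without high fat A, B or G and without control I, J or L, with an adjusted p up to 0.092 in edgeR. Idh3b was at 297 ± 10.3 CPM on the control diet and 303 ± 18.4 CPM on the high fat diet (SD, n = 4) and did not pass (adjusted p = 0.78, edgeR).

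The balance of these subunits was also read within each library, where scaling cancels out. The CPM ratio of Idh3g to Idh3a was 1.67, 1.34, 1.41 and 1.89 in control I, J, L and M and 2.29, 2.44, 1.97 and 2.0 in high fat A, B, F and G. The diets did not overlap, and the ratio was 1.38 times as high on the high fat diet (p = 0.0286 in an exact two-sided permutation test, the lowest value possible with 70 splits). The ratio of Idh3g to Idh3b lay at 0.788 to 0.909 on the control diet and 0.921 to 0.978 on the high fat diet (exact permutation p = 0.0286), while that of Idh3b to Idh3a overlapped (exact permutation p = 0.0857). In all, 10 ratios between TCA cycle genes were computed, chosen after the values had been seen, and 0 passed when adjusted over the 10 (adjusted p = 0.0714 for each of the 4 ratios at p = 0.0286; exact permutation tests, which allow no adjusted p below 0.05 unless at least 6 of the 10 reach the smallest p).

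**Figure D2:**
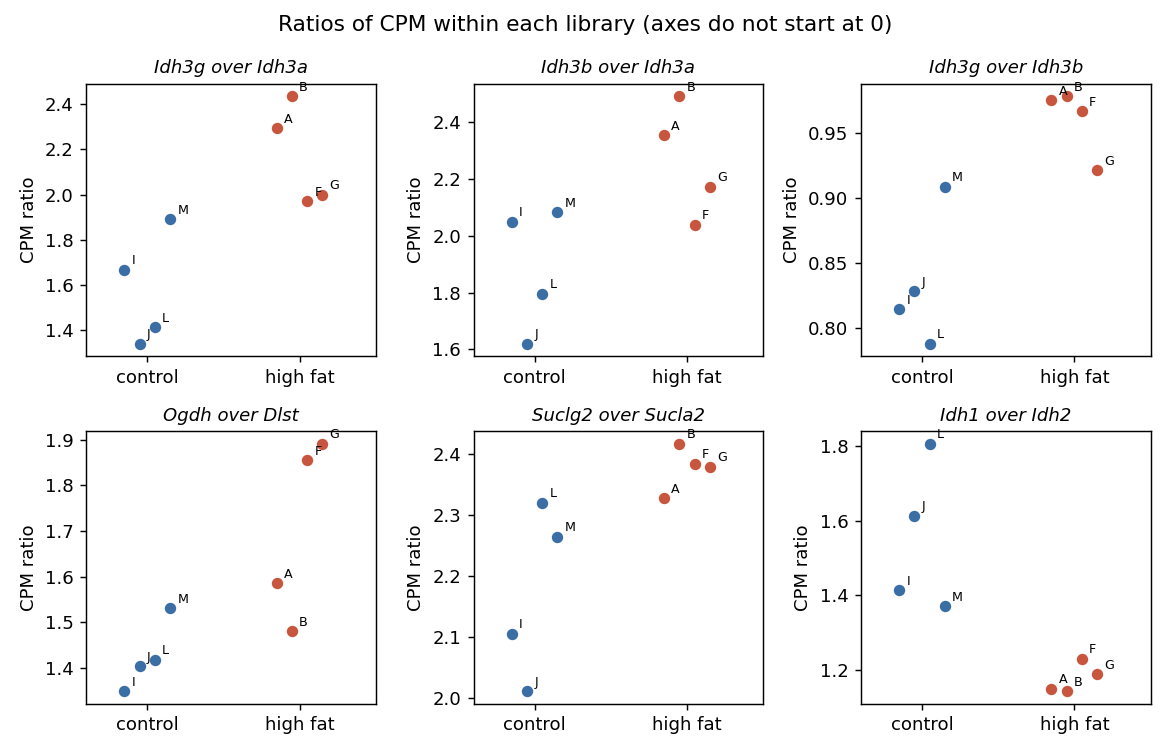
Ratios of the normalized counts of 6 pairs of TCA cycle genes within each library (vertical axes, no unit, not starting at 0), in blue for control and red for high fat, with library letters. For Idh3g over Idh3a, Idh3g over Idh3b, Suclg2 over Sucla2 and Idh1 over Idh2 the diets do not overlap; for Idh3b over Idh3a and Ogdh over Dlst they do.

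Ogdh (chromosome 11, 6291633 to 6356642) encodes the first component of the 2-oxoglutarate dehydrogenase complex, which releases carbon dioxide and forms succinyl-CoA. It was at 498, 558, 553 and 579 CPM in control I, J, L and M and at 591, 564, 724 and 735 CPM in high fat A, B, F and G. High fat F and G stood well above the other 6 libraries, high fat A just above the highest control, and high fat B within the control range. The means were 547 ± 34.7 and 653 ± 88.5 CPM (SD, n = 4), and the 95% interval of the log2 fold change, 0.26 ± 0.09 (SE), was 0.05 to 0.46. Ogdh did not pass, at an adjusted p of 0.10 in edgeR, 0.054 in DESeq2 and 0.11 in limma-voom. It passed narrowly without high fat B (log2 fold change 0.32, adjusted p = 0.049, edgeR). Without high fat F or without high fat G the log2 fold change was 0.20 (adjusted p = 0.24 in both, edgeR), and without high fat G and control J, the libraries with the most red cell RNA, it was 0.20 (adjusted p = 0.30, edgeR).

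The other components of that complex gave values close to equal. Dlst, the succinyl transferase, was at 384 ± 12.8 and 383 ± 8.02 CPM (SD, n = 4), and Dld, the lipoamide dehydrogenase shared with pyruvate dehydrogenase, at 298 ± 13.5 and 286 ± 12.7 CPM (SD, n = 4). Neither passed (adjusted p = 0.98 and 0.56, edgeR). The CPM ratio of Ogdh to Dlst ran from 1.35 to 1.53 on the control diet and from 1.48 to 1.89 on the high fat diet, so that it overlapped (exact two-sided permutation p = 0.0571, adjusted over the 10 ratios p = 0.114). Ogdhl, a relative of Ogdh, lay far lower, at 5.14 ± 0.952 and 5.34 ± 1.19 CPM (SD, n = 4), and did not pass.

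Succinyl-CoA ligase makes the cycle's only direct nucleoside triphosphate. Its alpha subunit, encoded by Suclg1 (chromosome 6, 73248382 to 73276911), pairs with the beta subunit of Suclg2 (chromosome 6, 95473009 to 95718800) to form GTP, or with that of Sucla2 to form ATP. Suclg1 was at 196, 211, 213 and 194 CPM in control I, J, L and M and at 216, 208, 203 and 221 CPM in high fat A, B, F and G. Suclg2 was at 523, 458, 566 and 517 CPM in the same control libraries and at 583, 588, 521 and 523 CPM in the high fat libraries. Both genes overlapped between the diets, and control J was the lowest library for Suclg2. The fold of high fat over control had a 95% interval of 0.958 to 1.13 for Suclg1 and of 0.960 to 1.2 for Suclg2 (adjusted p = 0.54 and 0.40, edgeR). Sucla2 lay at 237 ± 10.4 and 233 ± 16.2 CPM (SD, n = 4) and did not pass. The CPM ratio of Suclg2 to Sucla2 did not overlap, at 2.01 to 2.32 on the control diet and 2.33 to 2.42 on the high fat diet (exact two-sided permutation p = 0.0286, adjusted over the 10 ratios p = 0.0714), and its mean was 1.09 times as high. Those of Suclg1 to Suclg2 overlapped (exact permutation p = 0.629).

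Fumarase, from Fh1 (chromosome 1, 175600374 to 175625635), turns fumarate into malate. Fh1 was the steadiest of the 9 genes on the control diet, at 212, 207, 205 and 198 CPM in control I, J, L and M. In high fat A, B, F and G it was at 223, 226, 199 and 207 CPM. High fat A and B lay above all controls, and F and G within their range. The log2 fold change was 0.05 ± 0.06 (SE), with a 95% interval of the fold of 0.954 to 1.13 (adjusted p = 0.57, edgeR).

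Malate dehydrogenase interconverts malate and oxaloacetate, in the matrix through MDH2 and in the cytosol through MDH1, which serves the malate-aspartate shuttle and glucose synthesis. Mdh2 (chromosome 5, 135778480 to 135790398) was at 215, 266, 225 and 215 CPM in control I, J, L and M and at 214, 221, 226 and 247 CPM in high fat A, B, F and G. Control J was the highest, and the remaining values of both diets interleaved. Mdh1 (chromosome 11, 21556787 to 21572367) was at 1422, 1437, 1408 and 1269 CPM in control I, J, L and M and at 1371, 1387, 1267 and 1242 CPM in high fat A, B, F and G. High fat A and B and 3 controls formed an upper group of values, with control M and high fat F and G below. The fold of high fat over control had a 95% interval of 0.878 to 1.11 for Mdh2 and of 0.862 to 1.05 for Mdh1 (adjusted p = 0.90 and 0.51, edgeR). The annotation shows 52 exonic bases of Mdh1 shared with Wdpcp on the opposite strand (the sources used here do not say whether the counting used strand). The CPM ratio of Mdh1 to Mdh2 overlapped between the diets (exact permutation p = 0.657).

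Apart from Idh3a and Ogdh, then, the 95% intervals of the other 7 genes all lay between 0.862-fold and 1.2-fold. A p above the threshold does not show equal levels. For each gene, the folds within its own 95% interval are those that 4 libraries per diet did not tell apart.

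**Figure D3:**
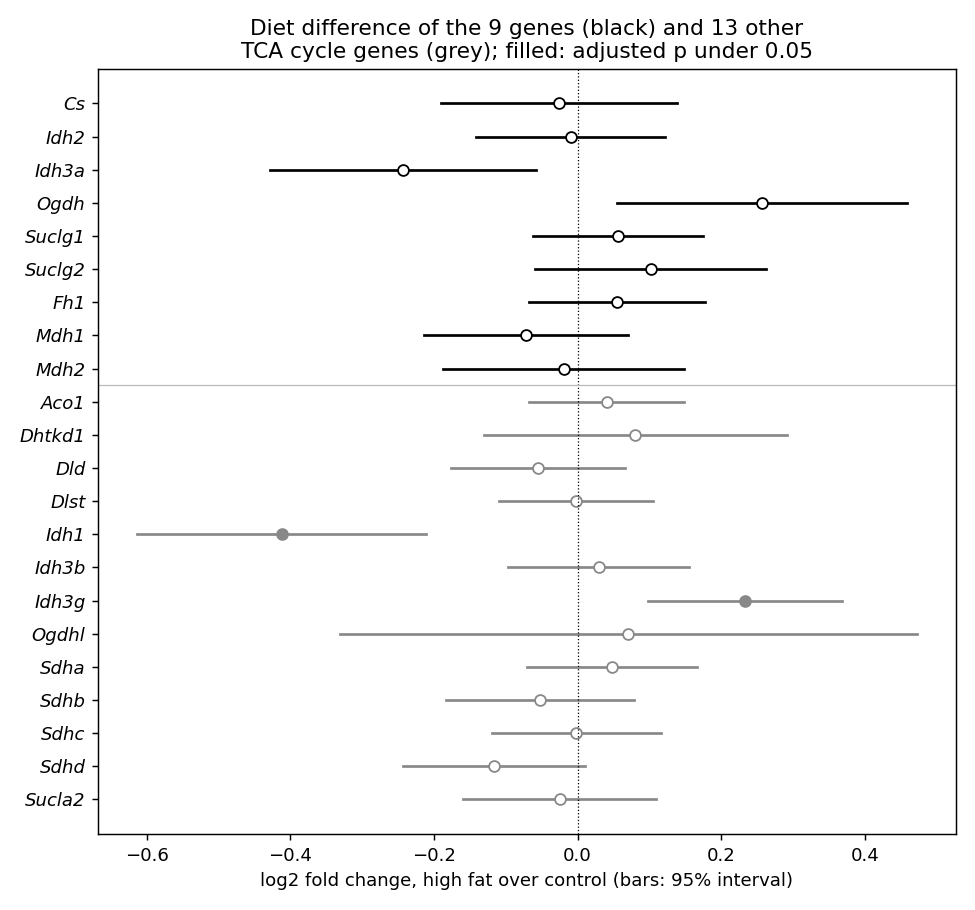
Log2 fold change of high fat over control (horizontal axis) with its 95% interval for the 9 genes (black) and 13 other TCA cycle genes (grey). Filled points passed at an adjusted p under 0.05 in edgeR; these are Idh1, at -0.41, and Idh3g, at 0.23, both among the 13.

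Levels of different genes were compared per transcript length, with the authors' FPKM rescaled so that each library summed to the same total without Rn45s. On that scale the 9 genes spanned 11.4-fold. Mdh1 led at 1389 ± 50.7 (SD over 8 libraries), rank 71 of 23503 symbols, followed by Idh2 at 621 ± 21.8, Suclg2 at 472 ± 43.1, Mdh2 at 365 ± 24.9, Suclg1 at 305 ± 16.5 and Fh1 at 260.3 ± 11.2. Ogdh at 179.7 ± 30.2 and Cs at 175 ± 19.8 came next, and Idh3a was last at 122 ± 13.4, rank 1192. Most neighbours in this order did not overlap in any library. The exceptions were Suclg2 and Mdh2, whose ranges overlapped although Suclg2 was higher in 7 of 8 libraries, and Ogdh and Cs, whose order differed from library to library: Ogdh was the higher in 3 of 4 high fat and 1 of 4 control libraries.

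The same scale shows how partners are balanced in this tissue. Cytosolic Mdh1 lay 3.81-fold above mitochondrial Mdh2. Idh2 lay 5.08-fold and Idh3g 3.39-fold above Idh3a, and Suclg2, the GTP-forming subunit, 2.10-fold above the ATP-forming Sucla2. The summed level of the 9 genes was 3878 ± 133 on the control diet and 3902 ± 85.7 on the high fat diet (SD, n = 4).

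**Figure D4:**
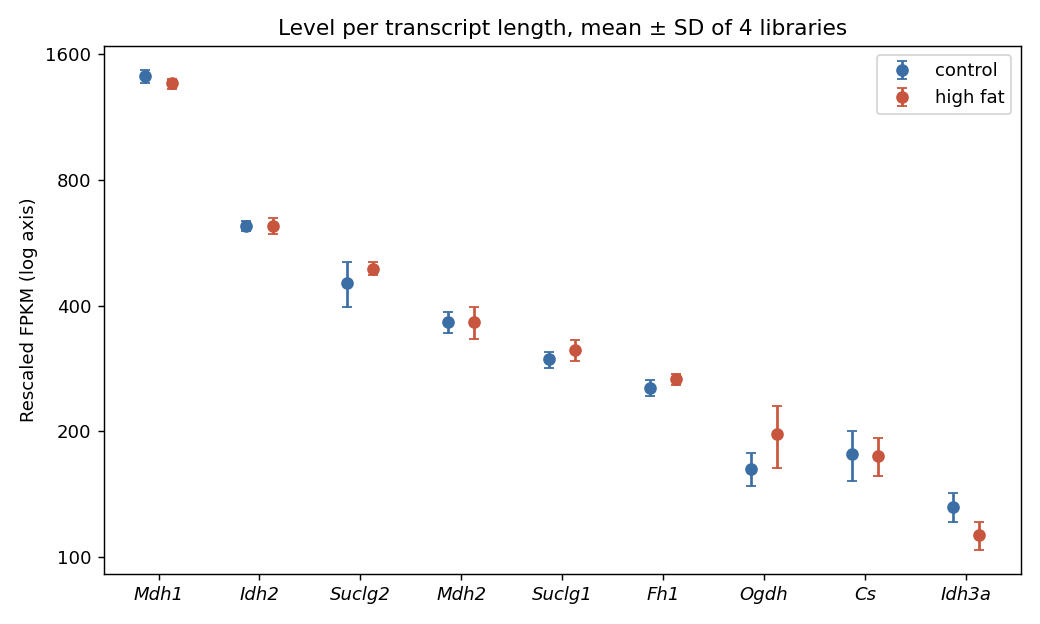
Level per transcript length of the 9 genes (vertical axis, rescaled FPKM, log scale), ordered by their mean over 8 libraries; points are the mean and bars the SD of 4 libraries, blue for control and red for high fat. Mdh1 stands highest at 1389 and Idh3a lowest at 122. On this axis the diets lie furthest apart for Ogdh (163 ± 14.9 on control, 197 ± 33.6 on high fat) and Idh3a (132 ± 10.5 and 113 ± 8.68).

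Over the whole set no library was high or low for all genes. Relative to each gene's own mean, the median over the 9 genes ran from -0.08 (control M, where 1 of 9 genes lay above its mean) to 0.05 (high fat A, where 6 did) on the log2 scale. Within the high fat diet, A and B had the higher values of Mdh1, Fh1, Suclg2 and Idh2, and F and G those of Ogdh, Idh3a and Mdh2.

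All 14 other TCA cycle genes were tested, with a median log2 fold change of 0.01. In edgeR 1 rose, 1 fell and 12 did not pass, beside 9.99% of all tested genes that passed. The diets separated fully for 2 of the 14, against 17.5% of all tested genes. These counts were not tested against those shares. Idh1, the cytosolic NADP-dependent isocitrate dehydrogenase, fell from 814 ± 117 to 612 ± 21.8 CPM (SD, n = 4), by 0.41 ± 0.09 (SE) on the log2 scale (adjusted p = 0.019, edgeR). Its 4 high fat values (579 to 624 CPM) lay below all 4 control values (686 to 947 CPM). The call was lost without high fat F or control J, with an adjusted p up to 0.056 in edgeR. The CPM ratio of Idh1 to its mitochondrial counterpart Idh2 was 1.41, 1.61, 1.81 and 1.37 in control I, J, L and M and 1.15, 1.14, 1.23 and 1.19 in high fat A, B, F and G, without overlap (exact two-sided permutation p = 0.0286, adjusted over the 10 ratios p = 0.0714). The gene that rose was Idh3g. The authors' deposited table of genes that differ between the diets lists neither Idh1 nor Idh3g. With control J left out both Idh1 and Idh3g missed the threshold, so that 0 of the 14 were called in edgeR.

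Aco1, the cytosolic aconitase, which also acts as an iron sensor, lay at 521 ± 14 and 536 ± 14.2 CPM (SD, n = 4) and did not pass. Nor did the subunits of succinate dehydrogenase, which belongs both to the cycle and to the respiratory chain. Their log2 fold changes were 0.05 for Sdha, -0.05 for Sdhb, -0.00 for Sdhc and -0.12 for Sdhd, and the smallest of their adjusted p-values was 0.22 (edgeR). Dhtkd1, a relative of Ogdh in lysine breakdown, was at 57.6 ± 3.59 and 60.9 ± 9.16 CPM (SD, n = 4).

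Genes that feed the cycle or draw from it were read against the 9.99% of all tested genes that passed and the 27.4% at an unadjusted p under 0.05. Of 14 genes of pyruvate entry 4 rose, none fell and 10 did not pass (8 at an unadjusted p under 0.05). Pcx, pyruvate carboxylase, which makes oxaloacetate, rose from 787 ± 67.8 to 1094 ± 90.6 CPM (SD, n = 4). Pdk4 and Pdk3, kinases that switch off pyruvate dehydrogenase, rose by 2.27 and 0.53 on the log2 scale, and Pdpr, a regulator of the opposing phosphatase, by 0.30. Of these, only Pdk3 lost its call in any fit without a library, that without control I (adjusted p = 0.050, edgeR). Of 21 genes that fill or drain the cycle 2 rose and 1 fell, a share near that of all genes. Pck1, which takes oxaloacetate toward glucose, rose from 2649 ± 198 to 4334 ± 516 CPM (SD, n = 4), and Me1, the cytosolic malic enzyme, by 0.29 on the log2 scale. Got1, the cytosolic aspartate aminotransferase that works beside Mdh1 in the malate-aspartate shuttle, fell by 0.42. The authors' deposited table lists Pcx, Pdpr, Pdk3, Pck1 and Got1, but not Pdk4 or Me1. The call of Me1 was kept in 2 of 8 fits without a library: it was lost without high fat A, F or G and without control I, J or L (adjusted p up to 0.11, edgeR).

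Of 12 mitochondrial carrier genes 2 rose and 10 did not pass. Slc25a10, the dicarboxylate carrier for malate and succinate, rose from 403 ± 10.2 to 496 ± 23.6 CPM (SD, n = 4), and Slc25a22, a glutamate carrier, from 10.03 ± 0.793 to 14.9 ± 2.56 CPM (SD, n = 4). Both kept their calls in all 8 fits without a library, and 0 of the 12 were called without control J and high fat G together. Slc25a10 and Slc25a22 are also listed in the authors' deposited table. Among the 4 assembly factors of succinate dehydrogenase 0 passed in edgeR, with 1 at an unadjusted p under 0.05 and 0 in DESeq2 and limma-voom. The authors' deposited table does list Sdhaf2 among these 4 (posterior score 0.0365).

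The respiratory chain was read against the same background of 9.99% and 27.4%, from which its counts were not tested. Of 35 nuclear genes of complex I, 2 rose (Ndufa1 by 0.21 and Ndufv3 by 0.24 on the log2 scale) and 33 did not pass. The authors' deposited table lists Ndufa1 and Ndufv3, and also Ndufa2 and Ndufa13. Without high fat A, high fat B, control I or control J 0 of the 35 passed in edgeR, without high fat F or control L 1 did, and 5 passed once the trend with gene length was removed. None of 9 genes of complex III, 10 of complex IV and 15 of complex V passed in edgeR, and at an unadjusted p under 0.05 there were 0, 1 and 0; DESeq2 and limma-voom called 0 of each, and 3 of complex IV passed once the length trend was removed. Their medians were 0.04, 0.03 and -0.05. Among 18 markers of mitochondrial content the outer membrane channel gene Vdac3 and the import gene Timm23 fell, by 0.28 and 0.22, and 16 did not pass. In edgeR 0 of the 18 passed without high fat F, high fat G, control I, control J or control L, and 1 without high fat A. The authors' deposited table lists Vdac3 and Timm23, and also Ppara, given next. Of 11 regulators of mitochondrial genes Ppara, the receptor for fatty acids that drives their oxidation, rose by 0.48 and 10 did not pass; 2 passed without high fat A, high fat B, high fat G or control L, and 3 in DESeq2. None of 7 genes of NAD supply and redox shuttles passed in edgeR, with 2 at an unadjusted p under 0.05; 2 passed without control M, and 0 in DESeq2 and limma-voom.

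**Figure D5:**
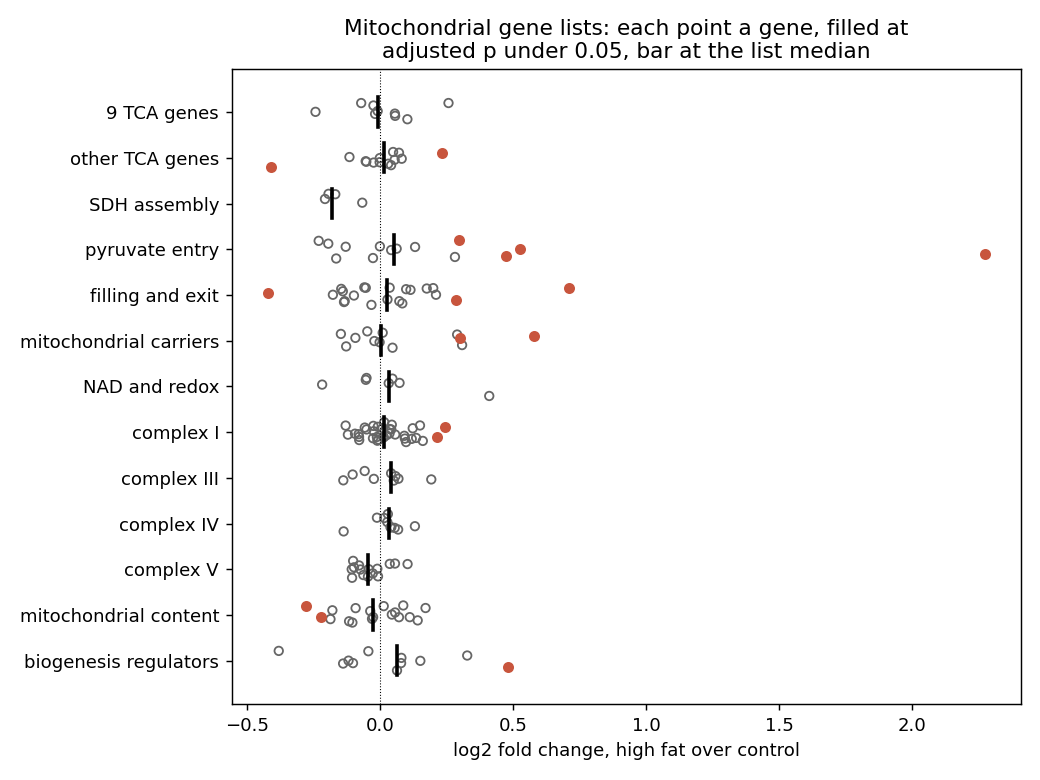
Log2 fold change of high fat over control (horizontal axis) for each gene of 13 mitochondrial lists (rows); red points passed at an adjusted p under 0.05 in edgeR, open points did not, and the black bar is the list median. The 9 TCA genes hold no red point, and the largest value, 2.27, is that of Pdk4 among the genes of pyruvate entry.

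In whole tissue, fewer cells of a type and less RNA per cell cannot be told apart. Marker counts stand beside the 9.99% of all tested genes that passed, 5.13% lower and 4.86% higher on the high fat diet. At an unadjusted p under 0.05 in edgeR the share of all tested genes was 27.4%. The summed levels of 13 marker lists were compared between the diets by exact two-sided permutation tests. When adjusted over the 13, 0 passed (smallest adjusted p = 0.149, exact permutation), and 2 lists were under 0.05 unadjusted. With 70 splits the smallest possible p is 0.0286. No adjusted p could then fall below 0.05 unless most of the 13 lists reached it, so 0 passing does not show equal sums. Of 8 markers of the thick ascending limb, which is also rich in mitochondria, 6 fell and none rose, and their sum was 5616 to 6312 CPM on the control diet and 4540 to 5506 CPM on the high fat diet (exact permutation p = 0.0286). Of 8 intercalated cell markers 2 fell and none rose, with sums of 361 to 406 and 311 to 343 CPM (exact permutation p = 0.0286). These were the 2 lists whose sums did not overlap between the diets. Of 10 markers of the first proximal segments 3 rose and 1 fell, and of 8 markers of the last segment 3 rose and 3 fell (exact permutation p = 0.171 and 0.0857 for their sums). Of 8 principal cell markers 2 fell and none rose (exact permutation p = 0.143), and of 6 podocyte, 6 mesangial and 7 distal convoluted tubule markers 1 fell in each and none rose (exact permutation p = 0.0571, 0.0571 and 0.857). At an unadjusted p under 0.05 in edgeR were 7 of the 8 thick ascending limb and 5 of the 8 intercalated cell markers. So were 8 of the 10 first proximal and 6 of the 8 last proximal markers. Of the principal cell, podocyte, mesangial and distal convoluted tubule markers there were 3, 3, 3 and 1. These counts were not tested against the share of all genes. No endothelial, macrophage, fat, muscle or red cell marker passed in edgeR, with 0, 0, 1, 0 and 2 at an unadjusted p under 0.05; of the fat and the muscle markers 1 each was abundant enough to be tested (exact permutation p = 0.771, 0.629, 0.0857, 0.0571 and 0.457 for their sums). No marker was at 0 in all libraries. The part of these differences in the values of the TCA cycle genes was not tested.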

How the data were processed

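RNA of outer renal cortex was sequenced from 4 libraries per diet, made from 1 ug of total RNA with removal of ribosomal RNA, per the labels' protocols. RSEM 1.2.9, CASAVA 1.8.2 and mm10 are named in the submitters' processing notes; these sources do not name the aligner or the annotation. The authors deposited expected counts (estimated by RSEM, not whole numbers) per gene symbol, FPKM values for the same symbols, and a table with a posterior score and a fold ratio per listed gene, whose tool is not given. RSEM shares reads between similar genes.

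Expected counts were rounded, Rn45s was left out, and edgeR 4.0.16 in R 4.3.3 was run (TMM factors, filterByExpr, quasi-likelihood test, diet as the only term, Benjamini-Hochberg over 14711 genes, threshold 0.05). CPM are TMM-normalized. The SE is the size of the log2 fold change over the square root of F, and 95% intervals use the t quantile of the fit. The method was tested on simulated counts. Intervals cover the spread between these libraries. For levels per length, FPKM were rescaled to a common sum without Rn45s. Single values were compared by exact two-sided permutation over 70 splits.

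The 9 genes and all lists were chosen with earlier results of these data known. All 9 genes and the 14 other TCA genes were to be named whatever their result (1 of the 14 is counted but not reported here), and of other pathway lists the called genes, up to the 4 with the smallest p; marker genes appear as counts and sums, except the fat cell genes, named after their values were seen. Sdhaf2, Ndufa2 and Ndufa13 are named only because the authors' deposited table lists them. Of the list symbols 6 were matched through RefSeq synonyms and 1, Hbb-bt, found no match. Positions are the ends of each gene in GENCODE M21 on GRCm38, the assembly of mm10; all 9 genes are annotated as protein-coding. Alternatives were DESeq2 1.42.0 (test and size factors), limma 3.58.1 (voom, and log2 FPKM with pseudocounts of 0.1 and 1 where the mean FPKM was at least 0.5), Rn45s kept, a robust fit, other filters and thresholds, removal of the trend with gene length, and leaving out libraries. Rescaled FPKM, and ratios of FPKM, were added after the data were seen.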

Additional observations from a re-analysis of the deposited data

Results flagged for a closer look

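Of 46 groups of 4 libraries (23 TCA cycle genes in each diet), 2 held a library far from the others of its diet; chance flags about 1 group in 20. Idh1 in high fat F was at 579 CPM, below the other high fat libraries at 622 to 624 CPM, which lie close together. Ogdhl in high fat A was at 3.57 CPM, below the other high fat libraries at 5.83 to 6.11 CPM.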

How the results depend on the processing

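No paired analysis was possible because the library letters differ between the diets. The count of called genes over all genes tested, 1469, was 91 and 98 in limma on log2(FPKM + 0.1) and log2(FPKM + 1), 812 with rescaled FPKM (an alternative chosen after seeing the data), 2547 at an adjusted p under 0.1, 739 to 1528 without a single library, and 417 with control J and high fat G, which had the most red cell RNA, both left out. Of the TCA members called lower on the high fat diet there was 1 at an adjusted p under 0.1 (Idh3a) and 0 to 1 without a single library; of those called higher, 0 to 1 (Ogdh without high fat B). Of the other TCA cycle genes called, 2, there were 0 in both fits of FPKM as deposited, 0 without both of those libraries and 0 to 2 without a single library.

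FPKM as deposited count Rn45s in the total. With them the median log2 fold change of all genes was 0.14 (pseudocount 0.1) and 0.11 (pseudocount 1). In these fits the following genes, none of them called, reversed to the values at both pseudocounts: Cs 0.13 and 0.13, Idh2 0.14 and 0.14, Mdh1 0.083 and 0.082, Mdh2 0.14 and 0.14, Dlst 0.15 and 0.15, Dld 0.099 and 0.098, Sucla2 0.13 and 0.13, Sdhb 0.10 and 0.10, Sdhc 0.15 and 0.15, Sdhd 0.039 and 0.038. Of these, Idh2, Dlst and Sdhc were also above 0 with FPKM rescaled without Rn45s, as given below. The part of Rn45s in these reversals was not tested. The other reversals were of log2 fold changes near 0, again none called, and their cause was not tested. With rescaled FPKM, Idh2 was 0.0032, Dlst 0.013 and Sdhc 0.012. With the length trend removed, Idh2 was 0.023, Mdh2 0.035, Dlst 0.0078, Sdhb 0.0086 and Sdhc 0.054. Without control J and high fat G, Idh2 was 0.0011, Mdh2 0.014, Dlst 0.0079, Sdhc 0.013 and Dhtkd1 -0.057. Dlst and Sdhc were 0.0036 and 0.0043 with DESeq2 size factors, 0.0021 and 0.0025 in DESeq2, and 0.0070 and 0.0075 for genes of at least 5 CPM. Without a single library Cs ran from -0.081 to 0.022, Idh2 from -0.033 to 0.035, Mdh2 from -0.061 to 0.056, Idh3b from -0.0049 to 0.066, Ogdhl from -0.030 to 0.22, Dlst from -0.021 to 0.015, Sucla2 from -0.062 to 0.0040, Sdhc from -0.025 to 0.032, Dhtkd1 from -0.017 to 0.14. Counting error was at most 2.05% for the 9 genes. For Ogdhl, with 72 counts in its lowest library, it was 11.8%.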
